A study of Homo sapiens with 20 samples.

Results

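In the H3K27 acetylomes of HCT-116 cells, 260 of 58859 peak regions favored the libraries of cells treated with oxaliplatin (OXPT). The regions were made by merging the peak lists of 16 libraries on chromosomes 1 to 22 and X wherever peaks shared at least 1 bp. The 260 member regions were chosen on measured presence: each held a peak in at least 5 more of the 8 OXPT libraries than of the 8 untreated (UNT) libraries. That is 0.442% of all regions, and 135 regions (0.229%) favored UNT libraries by the same margin. Because presence in OXPT and UNT libraries selected the members, every OXPT against UNT value of theirs is a description and was not tested.

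The cells, HCT-116, are an established line from a colorectal carcinoma. They were wild type (WT) or FBXW7-/- (KO), a knockout line obtained from a commercial supplier that lacks the substrate-recognition subunit of a ubiquitin ligase. Both were transfected for 48 h with endoribonuclease-prepared small interfering RNAs against no human target (esiCT) or against the class IIa histone deacetylase HDAC4 (esiHDAC4), and were left untreated or received 50 µM OXPT, a platinum drug that crosslinks DNA, during the last 24 h. The 8 groups were therefore WT esiCT UNT, WT esiCT OXPT, WT esiHDAC4 UNT, WT esiHDAC4 OXPT, KO esiCT UNT, KO esiCT OXPT, KO esiHDAC4 UNT and KO esiHDAC4 OXPT. Each had 2 libraries with the letters A and B, which the study calls biological replicates; the labels also mention a pool of 3 experiments without tying it to the letters, so p-values measure the spread between these libraries.

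Acetylation of lysine 27 on histone H3 marks the nucleosomes that flank active promoters and enhancers. DNA damage stabilizes p53, a transcription factor that binds as a tetramer to a pair of 10-base decamers and recruits histone acetyltransferases, often at enhancers far from the gene. HCT-116 cells carry wild-type p53, and the p53 target genes include a negative regulator of p53 itself (MDM2), cell cycle inhibitors and repair genes.

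The number of peaks per list bounds what can be seen in a library. Lists held 20234 to 27927 peaks in the 4 WT UNT libraries, 1752 to 21290 in KO UNT, 10562 to 24346 in WT OXPT and 6083 to 21875 in KO OXPT. The background read depth recovered from fold and p-value reached up to 3.07 reads in WT esiCT UNT B. It was lowest in KO esiHDAC4 UNT B, whose list of 1752 peaks stood apart from all others. Leaving out KO esiHDAC4 UNT B changed no member, as none of the 260 had a peak there. Start sites of 6 of 7 epithelial marker genes held a peak in at least 12 libraries, and those of 8 of 10 markers of other cell types (leukocyte, endothelial, hepatic and mesenchymal genes) held none in any library. The epithelial exception was CDH1, with a start-site peak in 8 libraries. The exceptions among markers of other cell types were COL1A1, with a peak in 11 libraries, and CD68, with a peak in 1. A mark present in fewer cells and a weaker mark in every cell cannot be told apart in such bulk libraries. H3K27ac at a gene does not report whether it was deleted or silenced, so the genotype and esiRNA labels were not checked.

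Many member regions contained a sequence that matches the p53 site, and examples are printed here because this match was far more frequent in members than in other regions. A site was counted when 2 decamers lay at most 13 bases apart with the C and G of each decamer core fixed and at most 2 mismatches elsewhere. The first 5 sequences are the plus strand of hg38 with 40 bases on each side of the site, and the site is in capitals. They lie near GADD45A (chr1:67725335-67725437) and PLK2 (chr5:58462234-58462333), both on the p53 target list, and near IFNGR2 (chr21:33367343-33367442), SYNE1 (chr6:152221955-152222054) and CLRN3 (chr10:127863325-127863424), whose surroundings resemble each other.
GADD45A: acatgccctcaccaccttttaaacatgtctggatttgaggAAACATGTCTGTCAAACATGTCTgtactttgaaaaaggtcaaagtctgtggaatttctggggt
PLK2: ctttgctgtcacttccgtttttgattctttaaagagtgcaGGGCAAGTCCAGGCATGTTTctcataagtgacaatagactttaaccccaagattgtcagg
IFNGR2: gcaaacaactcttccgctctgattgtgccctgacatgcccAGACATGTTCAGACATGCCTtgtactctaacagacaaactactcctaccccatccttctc
SYNE1: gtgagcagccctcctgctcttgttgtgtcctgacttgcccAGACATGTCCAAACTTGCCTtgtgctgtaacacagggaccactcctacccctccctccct
CLRN3: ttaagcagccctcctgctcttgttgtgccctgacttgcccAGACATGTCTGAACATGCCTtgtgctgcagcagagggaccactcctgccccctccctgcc

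All 5 sites matched the p53 pattern with 0 mismatches. The decamers were adjacent in 4 of them, and 3 bases lay between them near GADD45A.

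Among OXPT libraries, members were seen most often in letter A of every group and in WT esiHDAC4 letter B, and least often in letter B of both KO groups. In WT esiCT OXPT cells 240 members had a peak in letter A and 185 in letter B. In WT esiHDAC4 OXPT cells the numbers were 239 and 238. In KO esiCT OXPT cells they were 215 and 98, and in KO esiHDAC4 OXPT cells 244 and 136. The letters thus lay close together in WT esiHDAC4 cells and far apart in both KO groups. In UNT libraries the highest number was 41. WT UNT libraries held 35 and 28 members with esiCT and 21 and 41 with esiHDAC4, whereas KO UNT libraries held 5 and 5 with esiCT and 17 and 0 with esiHDAC4. The choice of members fixes a lower count in UNT libraries, so nothing is read from this gap. Of the 260 members, 165 had no peak in any UNT library and 234 had none in a KO UNT library.

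**Figure D1:**
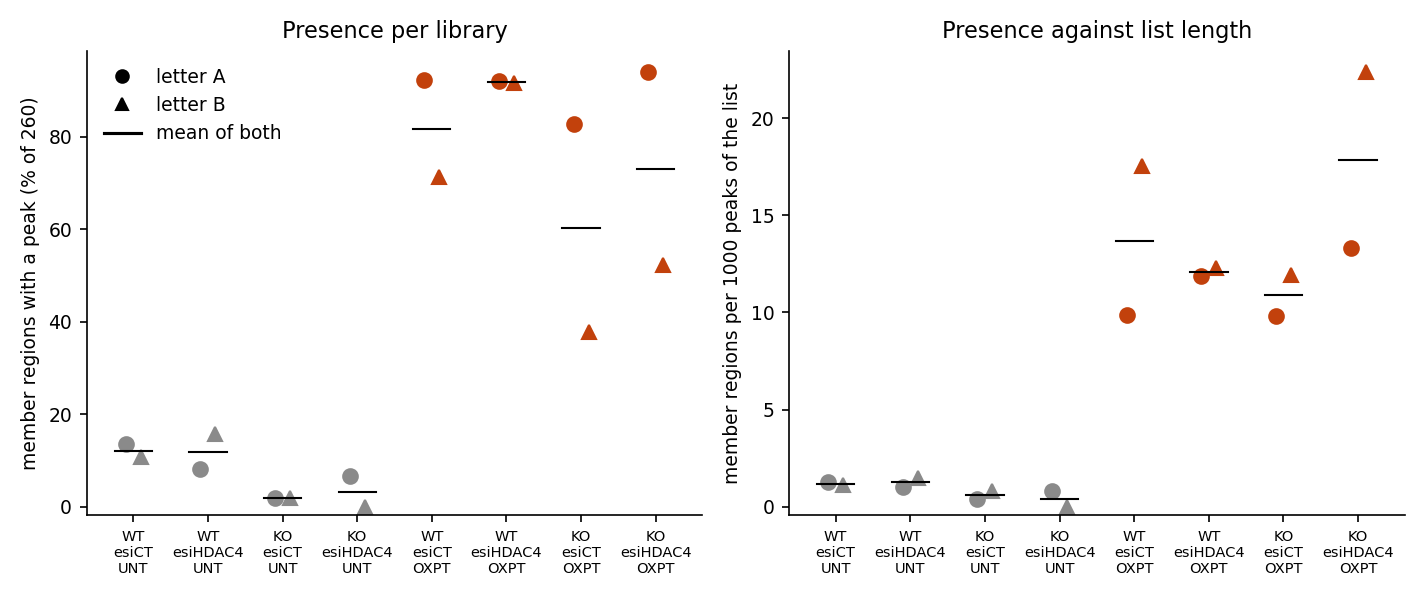
Member regions with a peak in each of the 16 libraries, as a percentage of the 260 members (left) and per 1000 peaks of the library's list (right). Circles are letter A, triangles letter B and bars the mean of the 2 libraries of a group; OXPT libraries (orange) lie between 37.7% and 93.8%, and in the right panel KO OXPT libraries reach values as high as WT OXPT libraries.

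Genotype and esiRNA labels had no part in the choice and were compared, though on the same peak presence that chose the members. A short list limits how many members a library can hold. A peak was called in 34.6% ± 38.3 of members per KO library and in 49.4% ± 40.6 per WT library (SD, n = 8 each, OXPT and UNT together). The difference within letter and treatment was -14.8 percentage points, with KO lower in 4 of 4 strata (p = 0.00772, adjusted p = 0.0309 over 4 tests, two-sided exact permutation test, smallest possible p = 0.00154). Without the letter as a block, p was 0.0527 in the same exact permutation test. The KO lists were also shorter. Over all regions, KO libraries held 18.0% with OXPT and 13.9% untreated, against 24.6% and 35.2% in WT libraries. KO was thus lower over all regions too, and the difference is not read as particular to members. With every list cut to the 1752 peaks of the shortest, the KO minus WT difference was -0.63 percentage points (p = 0.75, exact permutation test). Per 1000 peaks of a list there were 7.43 ± 8.24 members in KO and 7.05 ± 6.59 in WT libraries, a difference of 0.37 (p = 0.807, adjusted p = 0.807, exact permutation test), with KO higher in 2 of 4 strata. This average joined opposite directions. In OXPT libraries KO held 11.6 against 10.9 members per 1000 peaks in letter A and 17.1 against 14.9 in letter B. In UNT libraries KO held 0.597 against 1.15 in letter A and 0.408 against 1.30 in letter B, and the UNT difference was -0.72. The rule kept UNT calls of members few, so no genotype difference is read from the UNT values. Among OXPT lists the ratio was 22.4 in KO esiHDAC4 B (6083 peaks), 11.9 in KO esiCT B (8216) and 17.5 in WT esiCT B (10562). It was 9.83 in KO esiCT A (21875 peaks) and 9.86 in WT esiCT A (24346). The ratio thus does not put short and long lists on an equal footing. The part of list length in the genotype difference was not tested further. In the 8 OXPT libraries alone the difference was -20.1 percentage points (p = 0.167, exact permutation test, smallest possible p = 0.0556).

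HDAC4 silencing gave a smaller difference. Members had a peak in 45.0% ± 42.3 per esiHDAC4 library and 39.0% ± 37.8 per esiCT library (SD, n = 8 each). The difference of 6.01 percentage points lay within the spread between libraries (p = 0.400, adjusted p = 0.533, two-sided exact permutation test), and esiHDAC4 was higher in 3 of 4 strata. Per 1000 peaks the values were 7.90 ± 8.23 and 6.59 ± 6.54, a difference of 1.31 (p = 0.356, adjusted p = 0.533, exact permutation test).

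Individual members were then read by how many of the 4 OXPT libraries of each genotype or esiRNA held them, beside the 7750 regions with a peak in at least 5 OXPT libraries. At least 2 more WT than KO OXPT libraries held a peak for 63 members (24.2%), against 17.5% of the 7750 regions, and the reverse was true of 4 members (1.54%), against 1.83%. At least 2 more esiHDAC4 than esiCT OXPT libraries held a peak for 41 members (15.8%), against 5.59% of the 7750 regions. The reverse was true of 3 members (1.15%), against 3.69%. These sets differ in how many OXPT libraries hold a region, and a region in 7 or 8 of them cannot differ by 2. Among regions in exactly 6 OXPT libraries, esiHDAC4 exceeded esiCT in 38.3% of 81 members and 17.8% of 2168 regions, and WT exceeded KO in 54.3% and 49.2%. Among those in exactly 5, esiHDAC4 exceeded esiCT in 11.4% of 88 members and 1.90% of 2479 regions, and WT exceeded KO in 21.6% and 11.8%. In the shortest OXPT lists, WT esiCT B had 10562 peaks, KO esiCT B 8216 and KO esiHDAC4 B 6083, and the part of list length in these counts was not tested. The 7750 regions also differed in place, with 59.8% at start sites against 5.38% of members. Regions are not replicates, so no effect of HDAC4 silencing or genotype is read from these shares. All 4 WT OXPT libraries held a peak in 146 members and all 4 KO OXPT libraries in 44, of which 32 were shared. No share over the 7750 regions stands beside these counts, so no genotype difference is read from them.

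The members that separated the treatments best had a peak in all 8 OXPT and no UNT library. There were 5 of them. Near IFNGR2, a subunit of the interferon gamma receptor, the region at chr21:33366282-33368192 lay 35221 bp from the start site. Its fold enrichment over background was 4.11 and 5.35 in WT esiCT OXPT (A and B), 4.48 and 4.31 in WT esiHDAC4 OXPT, 5.62 and 5.35 in KO esiCT OXPT, and 4.65 and 6.26 in KO esiHDAC4 OXPT. The KO and WT values overlapped here. In an intron 3885 bp from a start site of DTWD1, the region at chr15:49624984-49626859 had folds of 3.19 to 5.29. The region 31125 bp from BCL2A1, a survival protein of the BCL2 family, lay at chr15:80002321-80004425 and had folds of 3.34 to 6.09. These 3 regions each held a p53 site with 0 mismatches, and all 3 sites belong to 1 set of related sequences described further on. The remaining 2 regions held no p53 site in the window. One lay in an intron of TBC1D22A (chr22:47128716-47130939, folds 3.17 to 6.09), 354789 bp from the nearest start site. The other lay 378567 bp from TGFBR2, the type II receptor of TGF-beta (chr3:30226859-30228034, folds 3.23 to 6.29).

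Members next in the same order had a peak in 7 OXPT and no UNT library. Of these, 14 are described here and lay nearest to CHAMP1, BCKDHB, NTRK2, EGLN3, AKR1D1, ATP12A, RUVBL1, BTG3, FAM3C, PANK2, CHD2, ANKRD33B, NDUFA10 and RAP2B. NTRK2 encodes a neurotrophin receptor, EGLN3 an oxygen-sensing prolyl hydroxylase, BTG3 an antiproliferative protein and CHD2 a chromatin remodeler. The missing library was a KO library in 12 of these 14 and WT esiCT OXPT B for BCKDHB and NTRK2. The KO letter B lists were the shortest of the OXPT lists. No share over all regions in 7 OXPT libraries stands beside this count, so no genotype difference is read from it. Distances ranged from 2897 bp at PANK2 to 452436 bp at RAP2B, so a nearest gene is a name for the place and not a shown target.

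**Figure D2:**
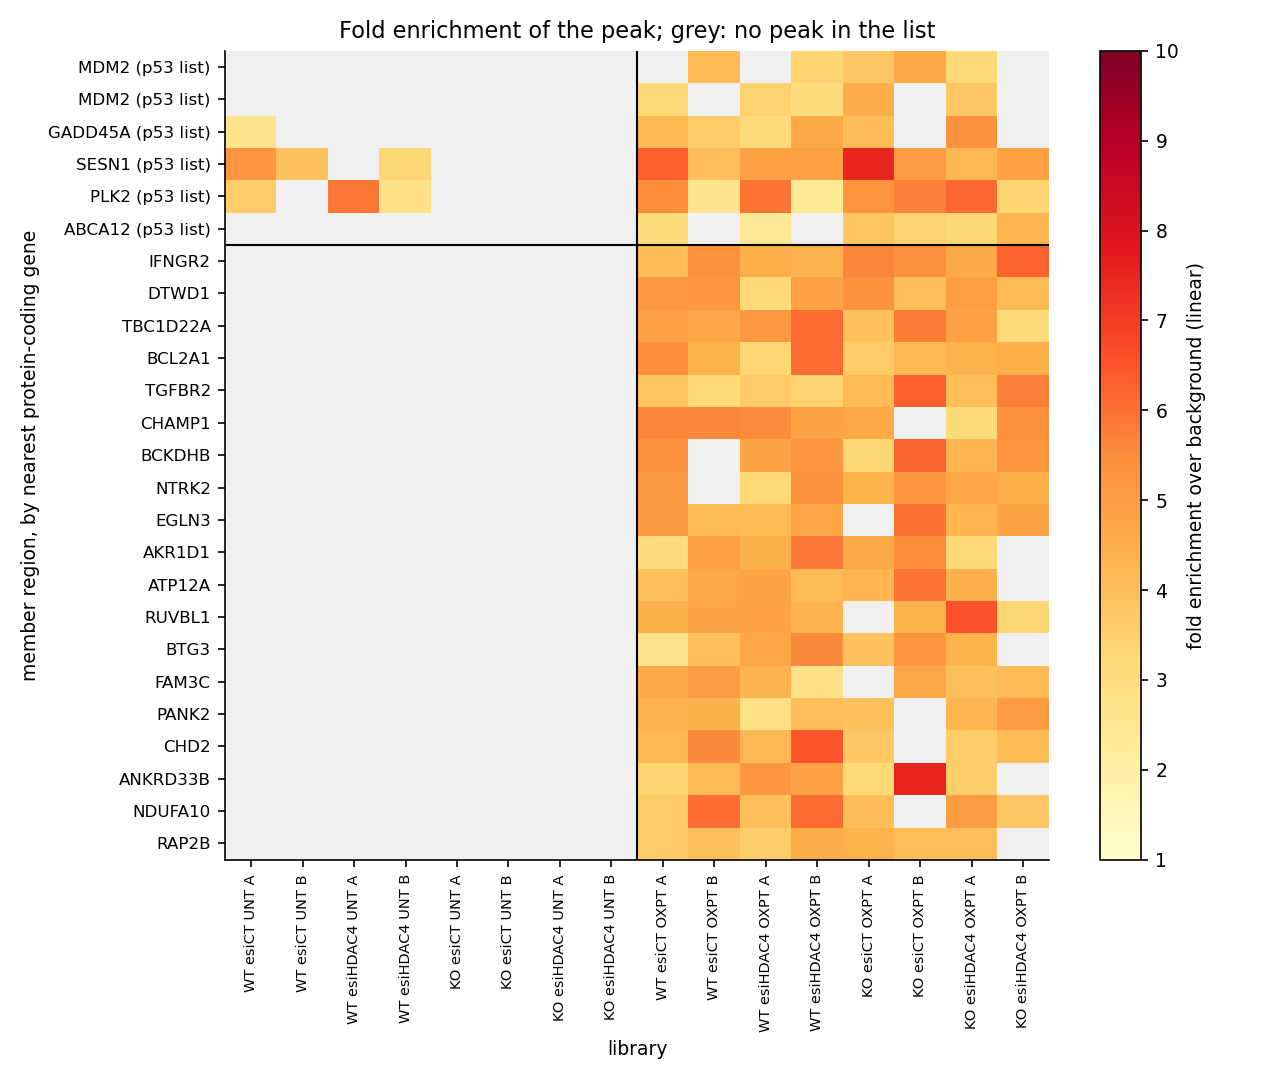
Fold enrichment (linear color scale from 1 to 10) of the highest peak in 25 member regions (rows) and 16 libraries (columns, UNT left of the line and OXPT right); grey means that the list held no peak. The upper 6 rows are regions near genes of the p53 target list and the lower 19 are members first in order; SESN1 and PLK2 have peaks in 3 UNT libraries each, all of them WT.

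Genes of a p53 target list were then examined. Of 82 listed genes, 5 (6.10%) had a member within 50 kb of a start site or in the gene body, against 363 of 19618 protein-coding genes (1.85%): MDM2, GADD45A, SESN1, PLK2 and ABCA12. The 1.85% covers all protein-coding genes, whether or not a peak region lay near them, whereas 81 of the 82 listed genes had one. The count of 5 rests on single libraries. It was 1 without WT esiHDAC4 OXPT B, KO esiCT OXPT A or KO esiHDAC4 OXPT A, up to 9 without 1 UNT library, and 1 with a difference of at least 6, and ABCA12 was in the list each time. MDM2, the ubiquitin ligase that marks p53 for degradation, had 2 members. The region 7422 bp away (chr12:68799195-68800755) had folds of 3.15 in WT esiCT A, 3.44 in WT esiHDAC4 A, 3.01 in WT esiHDAC4 B, 4.49 in KO esiCT A and 3.77 in KO esiHDAC4 A among OXPT libraries. The region 20177 bp away (chr12:68786771-68788000) had folds of 4.15 in WT esiCT B, 3.36 in WT esiHDAC4 B, 3.75 and 4.62 in KO esiCT A and B, and 3.19 in KO esiHDAC4 A. Neither had a peak in a UNT library, whereas the start site of MDM2 held a peak in 15 of 16 libraries.

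At GADD45A, a stress sensor that binds PCNA and the cyclin-dependent kinase CDK1, the member lay 38800 bp from the start site (chr1:67724205-67726212). Its folds were 4.18 and 3.58 in WT esiCT OXPT, 3.08 and 4.66 in WT esiHDAC4 OXPT, 4.03 in KO esiCT OXPT A and 5.33 in KO esiHDAC4 OXPT A, and 2.62 in WT esiCT UNT A. Both KO OXPT letter B libraries lacked it. SESN1, an inhibitor of mTORC1 signaling, had its member over one of its start sites (chr6:109007950-109009519) and was seen in 8 of 8 OXPT libraries with folds from 3.99 in WT esiCT B to 7.50 in KO esiCT A. It was also present in 3 WT UNT libraries with folds of 5.28, 3.86 and 3.29, the first within the OXPT range and the others below it, and in no KO UNT library.

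PLK2, a kinase of the polo-like family, had a member 1092 bp from a start site (chr5:58461231-58462773), with a peak in 8 OXPT libraries at folds of 2.35 to 6.14 and in 3 WT UNT libraries at 3.60, 5.91 and 2.76. At ABCA12, a lipid transporter, the member covered a start site (chr2:215137291-215138770) and was seen in all 4 KO OXPT libraries (folds 3.82, 3.42, 3.26 and 4.24) and in letter A of both WT OXPT groups (3.08 and 2.47). ABCA12 was the only one of the 5 with a peak at the start site in no UNT library. A member was also nearest to RAP2B, a small GTPase of the RAS family, and to NOTCH1, a receptor cleaved on ligand binding, at 452436 and 50484 bp, both beyond the distance used.

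Most p53 target genes had no member, and many had acetylated start sites with and without drug. A start-site peak was called in at least 5 OXPT and at least 5 UNT libraries for 50 of the 82 genes. CDKN1A, the cyclin-dependent kinase inhibitor p21, had a start-site peak in 8 OXPT and 8 UNT libraries, and its region with the largest treatment difference, 6891 bp away, was held by 8 OXPT and 6 UNT libraries. For BBC3, the apoptosis inducer PUMA, the numbers at the start site were 8 and 6, and for the death receptor FAS 7 and 5. Regions with a difference of 4, just under the rule, lay near 10 of the listed genes. No share over all protein-coding genes stands beside these counts, so they are not read as particular to p53 targets.

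Other gene lists held 0 to 2 genes with a member, beside the 1.85% of all genes. Of 16 AP-1 and ATF genes 2 (12.5%) had a member: ATF3, a stress-induced repressor, with a member 10564 bp away, and MAFK at 20400 bp. The ATF3 region (chr1:212596443-212598197) had folds of 4.52 and 5.16 in WT esiCT OXPT, 5.87 and 6.15 in WT esiHDAC4 OXPT, 4.50 and 4.78 in KO esiCT OXPT, and 7.63 and 7.27 in KO esiHDAC4 OXPT. In UNT libraries it had folds of 3.32 in WT esiCT B, 3.28 in WT esiHDAC4 A and 3.83 in KO esiCT A, all below its OXPT values. One gene each had a member among 21 immediate early genes (4.76%; ID3, an inhibitor of helix-loop-helix factors), 24 intestinal and WNT genes (4.17%; TCF7L2, the WNT effector, in its own intron), 27 adhesion and cytoskeleton genes (3.70%; S100A6, a calcium-binding protein, 8642 bp away) and 8 class IIa HDAC genes and partners (12.5%; HDAC5, 28448 bp away). With 1 or 2 genes a list, these shares cannot be ranked against the p53 list. The ID3 region had folds of 3.00 to 5.39 in 7 OXPT libraries and of 3.39 and 2.41 in letter B of both WT UNT groups. The TCF7L2 region had folds of 2.94 to 3.70 in the 4 WT OXPT libraries, 3.17 in KO esiHDAC4 OXPT A and no peak elsewhere. The S100A6 region had folds of 2.80 to 4.19 in the 4 WT OXPT libraries, 3.55 and 3.69 in letter A of both KO OXPT groups and no UNT peak. MAFK and HDAC5 are named although another gene's start site was nearer, which was decided after their values were seen. BIRC3, an apoptosis inhibitor, and SMAD7, an inhibitor of TGF-beta signaling, were the nearest genes of a member but lay 59906 and 98532 bp away. No gene had a member among 14 ATF4 and stress genes, 19 NF-kB genes, 21 TGF-beta genes, 12 cell death genes, 12 interferon genes and 8 EGFR ligand and receptor genes.

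The 260 members had 248 different nearest genes. Only CA2, ANKRD11 and SORCS2 were nearest to 3 or more. CA2, a carbonic anhydrase, had 4 members on chromosome 8 within 183403 to 196284 bp, with folds of 1.60 to 4.17 among OXPT libraries, and 3 of the 4 lay in super-enhancers of 7 OXPT libraries. The 3 members of ANKRD11, a chromatin regulator, lay in its introns with differences of 7, 5 and 5. The 3 of SORCS2, a sorting receptor, lay in its introns with a difference of 5 each.

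Members lay away from promoters. A start site of a protein-coding gene was within 1 kb of 14 members (5.38%), compared with 28.9% of all regions and 59.8% of the 7750 regions in at least 5 OXPT libraries. Introns held 117 members (45.0%, against 31.3% of all regions), exons 4 and intergenic sequence 125 (48.1%, against 37.4%). The median distance to a start site was 26672.5 bp in members and 11000 bp in all regions. Regions favoring UNT libraries lay at start sites in 45.2% of cases. Members had a median GC content of 44.1% in the 1000 bases around the center, against 49.7% in all regions. Their median width was 1655 bp, against 498 bp over all regions, most of which were seen in 1 library, and 2274 bp over the 7750 regions.

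A p53 site was far more frequent in members than in other regions, and sequence had no part in the rule. Within the 1000 bases around the center, 43 members (16.5%, 95% exact interval 12.2 to 21.6) had a site with 0 mismatches, 99 (38.1%, 32.2 to 44.3) one with at most 1 and 164 (63.1%, 56.9 to 69.0) one with at most 2. Among all 58859 regions the shares were 0.464%, 2.55% and 12.6%. Among the 135 regions favoring UNT libraries they were 0.741%, 2.22% and 7.41%. Intervals cover counting error only and treat regions as independent, which related sequences are not.

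The share changed stepwise with the treatment difference, also outside the members. A site with at most 1 mismatch was found in 1.72% of regions with equal numbers of OXPT and UNT libraries, in 3.40%, 6.33%, 12.6% and 21.1% of those with 1, 2, 3 and 4 more OXPT libraries, and in 31.0%, 45.8% and 54.5% of members with a difference of 5, 6 and 7 or 8. In the other direction the share stayed between 0.842% and 2.22%. The number of libraries was held alike by taking only regions with a peak in 5 to 8 libraries. There, 41.1% of 209 members had the site, against 1.34% of 3573 regions whose difference was -1 to 1 and 6.25% of 560 regions whose difference was 2 to 4. The median widths were 1553, 1123 and 1183 bp.

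**Figure D3:**
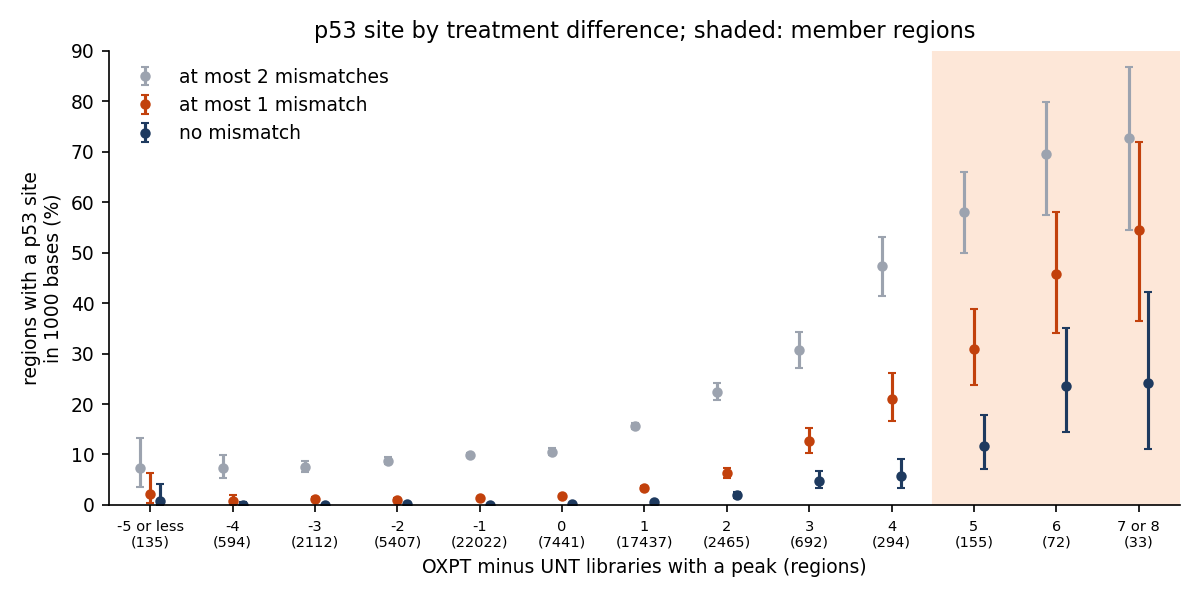
Percentage of regions with a p53 site in the 1000 bases around their center, by the number of OXPT minus UNT libraries with a peak (number of regions in brackets). Colors give the mismatches allowed, bars are 95% exact binomial intervals and the shaded bins are the member regions; with at most 1 mismatch the share is 1.72% at 0 and 54.5% at 7 or 8.

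Other motifs were searched on both strands in the same window, and none differed between members and all regions by as large a factor as the p53 site. AP-1 (TGANTCA) was present in 32.7% of members and 31.0% of all regions, TEAD (GGAATG) in 46.9% and 42.0%, NFY (CCAAT) in 70.8% and 65.8%, the E-box CACGTG in 12.7% and 14.5%, C/EBP-ATF (TGATGNAA) in 17.3% and 12.5%, and the NF-kB motif in 39.6% and 46.3%. CRE/ATF (TGACGTCA) was found in 0.769% and 1.14%, and the HNF4-like word CAAAGTCCA in 1.54% and 1.28%. The SP/KLF word GGGCGG was rarer in members, 19.6% against 40.8%. For C/EBP-ATF (95% exact interval 12.9 to 22.5% in members) and NF-kB (33.6 to 45.8%) the share over all regions also lay outside the members' interval. A match is a description of the sequence, and binding of a factor was not measured.

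The p53 site often lay near the middle of the regions, and peak summits lay to both sides of it, most often 200 to 300 bp away. Of the 164 sites, 123 (75.0%) lay within 250 bp of the center of the region. For the 99 members with at most 1 mismatch, the 608 peaks of OXPT libraries had their summit at a median of 272 bp from the site. The site lay inside 360 of these peaks (59.2%), and summits in regions without a site were not compared. By steps of 100 bp away from the site, on both sides together, there were 86, 120, 132, 94 and 61 summits, so the number was highest at 200 to 300 bp and moderately lower beside the site. Peaks of 1 region in several libraries share the site and are not independent.

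**Figure D4:**
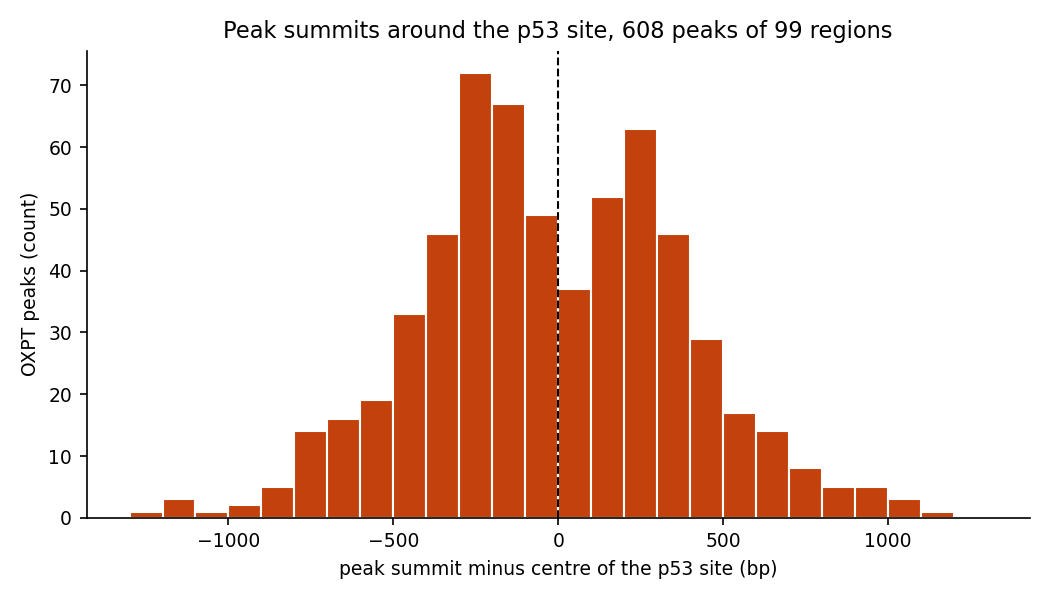
Distance of 608 OXPT peak summits from the center of the p53 site (bp, plus strand of the genome to the right) in the 99 member regions whose site has at most 1 mismatch. Bars count peaks per 100 bp; the bins beside the site (dashed line) are lower than those at 200 to 300 bp on either side.

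Many sites lay in related sequence. When the 200 bases around each of the 164 sites were aligned to each other, 69 (42.1%) matched another member across the site, in 6 sets, the largest of 25 and 22 sites. The set of IFNGR2, SYNE1 and CLRN3, printed above, also held DTWD1, BCL2A1 and SBF2. Members of the largest set are shown here with 25 bases on each side, on the strand that aligns with BICD1, the sequence related to most others in the set, because they show how far the likeness extends beyond the site. They are BICD1 (chr12:32248963-32249032, plus strand), AKR1D1 (chr7:138164885-138164954, plus), MICA (chr6:31390651-31390720, plus) and TMEM260 (chr14:56666438-56666507, minus).
BICD1: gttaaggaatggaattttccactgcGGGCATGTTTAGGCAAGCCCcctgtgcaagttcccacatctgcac
AKR1D1: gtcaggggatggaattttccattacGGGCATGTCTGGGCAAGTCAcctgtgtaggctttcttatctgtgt
MICA: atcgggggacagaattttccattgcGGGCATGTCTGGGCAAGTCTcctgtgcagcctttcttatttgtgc
TMEM260: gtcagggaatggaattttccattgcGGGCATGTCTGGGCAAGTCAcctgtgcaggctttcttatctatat

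Identity to the BICD1 sequence over the aligned bases had a median of 84.2%. This is over the members that aligned to BICD1 directly. A pair of members of the set, on chromosome 13, were both nearest to MED4. In the second set of 22 sites, identity to the TMEM30A sequence, whose region covers a start site of that gene, reached 94.7% at KCNMA1. Reads that fit several near-identical copies can be placed at any of them, and how the alignment treated such reads in these sets was not tested.

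Members without a p53 site were seen more often in UNT libraries. UNT presence was part of the rule and the share with a site rose with the treatment difference, so this is no separate result and was not tested. The shares without and with a site were 16.7% and 7.32% in WT esiCT UNT B, 10.4% and 4.27% in KO esiHDAC4 UNT A and 9.38% and 7.32% in WT esiHDAC4 UNT A. Those without a site were higher in each of the 7 UNT libraries that held any member. In KO esiHDAC4 OXPT B a peak was called in 46.3% of the 164 members with a site and 62.5% of the 96 without, a gap larger than in any other library. The median fold was 4.11 in members with a site and 4.04 in those without.

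Since the treatment contrast could not be tested in the libraries that chose the members, regions were also chosen on part of the libraries, as at least 3 more of 4 OXPT than of 4 UNT, and measured in the libraries left aside. The 357 regions chosen on WT libraries, 191 of them members, had a peak in 38.7% ± 22.5 of KO OXPT and 3.57% ± 4.81 of KO UNT libraries (SD, n = 4 each). The ranges, 16.5 to 65.5% and 0 to 10.6%, did not overlap (exact permutation test, two-sided, p = 0.0286, which is the smallest that 4 against 4 libraries allow; adjusted p = 0.0571 over 4 choices). Over all regions KO OXPT and KO UNT libraries held 18.0% and 13.9%. The 122 regions chosen on letter B, 87 of them members, had a peak in 78.5% ± 7.70 of OXPT and 22.3% ± 9.26 of UNT libraries of letter A, again without overlap (p = 0.0286, exact permutation test, adjusted p = 0.0571), while all regions had 28.7% and 28.9%. These tests did not use the pairing of libraries by genotype, esiRNA and letter. With it, p was 0.125 for both choices (exact paired permutation test, the smallest that 4 pairs allow).

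The other two choices gave smaller differences. The 705 regions chosen on letter A had a peak in 32.7% ± 17.8 of OXPT and 15.2% ± 15.6 of UNT libraries of letter B (p = 0.200, exact permutation test, adjusted p = 0.267). Over all regions these libraries ran the other way, 13.9% in OXPT and 20.2% in UNT, and 51.1% of the 705 regions were in more OXPT libraries and 15.5% in more UNT libraries. The spread includes the gap between genotypes. Between libraries matched in genotype, esiRNA and letter, OXPT was higher in 4 of 4 pairs: 37.2% against 27.4% and 55.9% against 29.9% in WT, and 16.2% against 3.26% and 21.6% against 0.284% in KO (exact paired permutation p = 0.125, the smallest 4 pairs allow). Pairs gave the same p of 0.125 for the choices on WT and on letter B, with OXPT higher in 4 of 4. The 484 regions chosen on KO libraries had a peak in 70.4% ± 11.2 of OXPT and 61.3% ± 8.79 of UNT libraries of WT cells (p = 0.286, exact permutation test, adjusted p = 0.286), with OXPT higher in 3 of 4 matched pairs (exact paired permutation p = 0.375). Over all regions WT OXPT libraries held 24.6%. A p53 site with at most 2 mismatches was present in 58.3% of the regions chosen on WT, 56.6% of those on letter B, 44.5% of those on letter A and 30.2% of those on KO. Over all regions, KO UNT lists held 13.9% and WT UNT lists 35.2%, and the part of list length in these values was not tested.

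**Figure D5:**
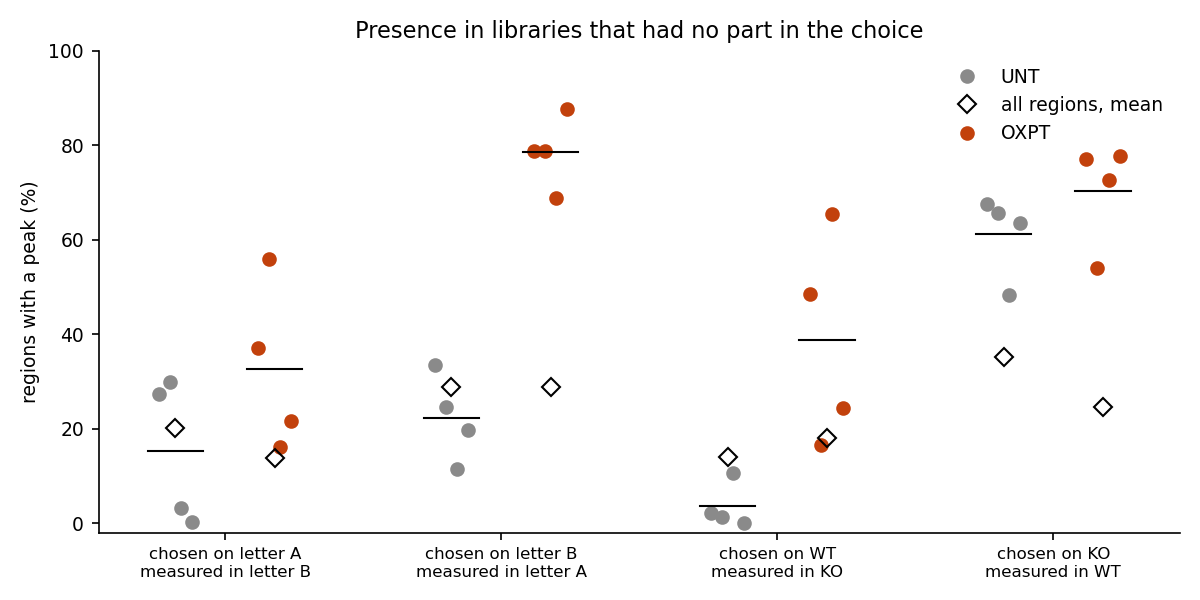
Percentage of regions with a peak in libraries that had no part in choosing them, for 4 ways to choose. Each point is 1 library (grey UNT, orange OXPT), bars are means of 4 libraries and open diamonds the mean over all 58859 regions; UNT and OXPT points do not overlap for regions chosen on letter B or on WT.

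Super-enhancers, clusters of H3K27ac peaks joined by the authors, covered a minority of members. A region counted as covered, or as lying in a super-enhancer, when it overlapped one by at least 1 bp. In any OXPT library 63 members (24.2%) lay in a super-enhancer, and in any UNT library 15 (5.77%). Among all regions the shares were 12.1% and 16.2%, and among the 7750 regions in at least 5 OXPT libraries 26.8% and 27.9%. The number per library was 19 and 10 in WT esiCT OXPT (A and B), 39 and 17 in WT esiHDAC4 OXPT, 28 and 6 in KO esiCT OXPT and 26 and 4 in KO esiHDAC4 OXPT, and at most 5 in a UNT library. Letter A exceeded letter B in each of these groups. The percentage of members covered was 3.37 ± 4.42 in KO and 4.66 ± 4.89 in WT libraries (difference -1.30 percentage points, p = 0.252, two-sided exact permutation test, n = 8 each). Without WT esiCT OXPT A alone, the difference was -2.26 (p = 0.0123, exact permutation test). With esiHDAC4 it was 4.62 ± 5.42 and with esiCT 3.41 ± 3.78 (difference 1.20, p = 0.289, exact permutation test).

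At the border of the rule, 155 members had a difference of exactly 5, and 294 regions with a difference of 4 fell just outside. The first 2 inside by order were near MCPH1 and in an exon of ATP2A2, the calcium pump SERCA2, each with a peak in 5 OXPT and 0 UNT libraries and median folds of 5.46 and 4.87. The first 2 outside lay in an intron of SDK2 and over a start site of ARID3A, each with a peak in 4 OXPT and 0 UNT libraries and median folds of 5.15 and 5.01. A p53 site was found in the window of all 4, near SDK2 just outside the region itself.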

How the data were processed

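H3K27ac ChIP-seq was read from 16 libraries of HCT-116 cells; 4 inputs were listed and not analysed here. Per the labels and the study's methods, the authors used Trimmomatic (0.39) for trimming, Bowtie2 (2.4.4) for alignment to hg38, removed duplicates with SAMtools (1.18) and called peaks per library with MACS2 (2.2.7.1). Each deposited peak has a position, a summit, an integer score made from the q-value, a fold enrichment (a ratio of pileup to background), and a p-value and q-value as −log10. The deposited super-enhancer lists hold positions. As an index of depth, background reads per library were recovered from fold and p with a tolerance of 0.01 on −log10 p, which solved 99.48 to 99.99% of the peaks of each list; no list was left out.

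Lists were merged by 1 bp on chromosomes 1 to 22 and X, and a library held a region when its list had a peak there. Coordinates are hg38 from 1. Genes and start sites came from GENCODE version 44 (protein-coding), sequences from the hg38 genome, and related sites from blastn 2.17.0 (e-value 1e-05). Python 3.11.15, scipy 1.17.1 and pysam 0.24.0 were used, and the scripts were tested on simulated data.

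KO against WT and esiHDAC4 against esiCT were compared over libraries by exact permutation within letter and treatment, since the study's own model has the replicate as a term, with Benjamini-Hochberg adjustment over the 4 tests of presence. The letters were checked as pairs: differences A minus B in presence correlated between groups with r of -0.0197 to 0.264, over 0.1 in 12 of 28 group pairs. Single regions were not tested: OXPT against UNT chose them, and a genotype or esiRNA difference confined to OXPT libraries cannot go below an exact p of 0.0556 in this design. Named were p53-list genes with a member within 50 kb or in the body, the 20 members first by difference, fewest UNT libraries and median OXPT fold, genes of other lists nearest to a member, genes nearest to at least 3 members, and 2 regions on each side of the threshold. The result for 1 of these 20 members is not reported here. The members, lists and tests were chosen with earlier results of these data known. Exact 95% binomial intervals cover counting error only. Tests of regions chosen on part of the libraries and their matched pairs, and counts at an equal number of OXPT libraries, were added after the data were seen.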

Additional observations from a re-analysis of the deposited data

Results flagged for a closer look

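Outside chromosomes 1 to 22 and X, on contigs the comparisons did not use, 9 of 122 regions (7.38%) had a peak in at least 5 more OXPT than UNT libraries, against 0.442% of the regions analysed. They lay on 2 contigs. WT OXPT libraries held 8, 8, 9 and 9 of them, KO OXPT libraries 6, 1, 9 and 6, and UNT libraries at most 2. They were marked as a signal in data outside the comparisons. Their presence chose them, the difference was not tested, and 1 of the 122 regions favored UNT libraries by the same margin.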

How the results depend on the processing

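The number of members, 260, was 270 with peaks within 500 bp merged, 269 with all contigs and 260 above the planned fold threshold of 1.34, which lay at the bottom of every list. It was 554 and 105 with a difference of at least 4 and 6, 103 above a fold of 3.87 (chosen after seeing the data), 2 with −log10 q of at least 10, 38 with lists cut to the 1752 peaks of the shortest, 36 where peaks had to cover 50% of the region, and 119 to 340 without 1 library, with 119 to 161 where one of the 4 WT OXPT libraries or letter A of a KO OXPT group was left out, since the margin stayed at 5. The share at a start site (5.38%) was 17.3% within 5 kb, 15.4% with start sites of all genes, 9.57% with a difference of at least 4, and 3.65 to 10.6% without 1 library. The share with a p53 site (63.1%) was 32.3% in 300 bases, 69.6% in the whole region, 38.1% and 84.6% with at most 1 and 3 mismatches, 54.7% and 70.5% with a difference of at least 4 and 6, and 56.3 to 71.3% without 1 library. With regions chosen on part of the libraries, as added after seeing the data, it was 44.5% for letter A, 56.6% for letter B and 30.2% for KO. p53 genes with a member numbered 15 and 1 with a difference of at least 4 and 6, and 1 to 9 without 1 library, with 1 without WT esiHDAC4 OXPT B, KO esiCT OXPT A or KO esiHDAC4 OXPT A. No share over all protein-coding genes stands beside the counts at these settings.

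The KO minus WT difference in presence (-14.8 percentage points) was -0.58 (p = 0.5) with −log10 q of at least 10 and -0.63 (p = 0.75) with lists cut to the shortest, 0.37 members per 1000 peaks (p = 0.807), -20.1 (p = 0.167) in OXPT libraries alone, and -17.3 to -12.2 without 1 library (exact permutation tests). Without the replicate block it was -14.8 with an exact permutation p = 0.0527, and the block changed no call of the other 3 tests run both ways, those of esiHDAC4 in presence and of both contrasts in super-enhancer cover. The super-enhancer difference KO minus WT was -2.26 to -0.34 without 1 library (past 0.05 only without WT esiCT OXPT A, exact permutation p = 0.0123) and that of esiHDAC4 0.58 to 1.83, and the esiHDAC4 difference in presence 1.11 to 10.9; these kept their direction, and no esiHDAC4 comparison passed 0.05. The cause of these changes was not tested, except that stricter lists hold fewer peaks. Depth limits all counts: a region missing from a short list was not detected there.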

Other observations

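Of the members, 5 lay within 5 kb of a pseudogene of the ribosomal protein gene RPL23A, a pattern named after the values were seen. The pseudogenes were RPL23AP25, RPL23AP97, RPL23AP4, RPL23AP82 and RPL23AP53, and RPL23AP53 lay 213.7 kb from a chromosome end and the others within 100 kb of one. Among all 58859 regions 36 lay within 5 kb of such a pseudogene (0.0612%, against 1.92% of members). A p53 site was found in 4 of the 5. Reads shared between such copies were not tested. Within 100 kb of a chromosome end lay 6 members (2.31%), against 0.167% of all regions.

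MDM4, a paralog of MDM2 that inhibits p53 and is on none of the lists, was also named after its values were seen. Its member at chr1:204508566-204510349, 6030 bp from a start site, had a peak in 8 OXPT libraries at folds of 3.71 to 5.66 and in 2 UNT libraries, WT esiCT B at 2.91 and KO esiCT A at 4.13. Chromosome 8 had the highest share of members among its regions, 23 of 2673 (0.861%), and chromosome X had 0 of 662.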
